A study of Homo sapiens with 6 samples.

Results

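Collagen leaves the cell with part of its proline and lysine residues hydroxylated, and outside the cell it is made insoluble by crosslinks between lysine-derived aldehydes. The RNA of 10 genes that encode the enzymes of these steps was compared between A375RIPK4.KO and A375neg cells. They were the rows of the deposited table named for the lysyl oxidases LOX, LOXL1, LOXL2, LOXL3 and LOXL4, the lysyl hydroxylases PLOD1, PLOD2 and PLOD3, and the prolyl 4-hydroxylase alpha subunits P4HA1 and P4HA2, and all 10 are present among the 20851 listed genes. A375 is a human melanoma line. A375RIPK4.KO is a subline in which RIPK4, a serine/threonine kinase gene, was targeted by CRISPR/Cas9 with a lentiviral guide RNA, and the sequenced cells came from 1 clone (#1). A375neg received a lentiviral guide without a target in the human genome and is labelled as a GFP control. Both sublines were grown in the same medium with no further treatment, and each gave 3 libraries of poly(A) RNA. Because the knockout is 1 clone, loss of RIPK4 and other differences between the sublines cannot be told apart, and bulk RNA does not separate a change in every cell from a change in the share of cells that express a gene. The study calls the libraries independent biological replicates and does not describe how their cultures were kept apart, so the p-values measure only the spread between these libraries.

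Prolyl 4-hydroxylase works in the endoplasmic reticulum on newly made collagen chains and stabilises the triple helix, and its alpha subunits carry the catalytic site while the beta subunit P4HB, a protein disulfide isomerase, keeps them soluble. The lysyl hydroxylases act in the same compartment. PLOD1 is known for lysines in the helix, PLOD2 for those in the telopeptides, from which stable pyridinoline crosslinks start, and PLOD3 also adds sugars to hydroxylysine. Both kinds of hydroxylase need oxygen, iron, ascorbate and 2-oxoglutarate. Lysyl oxidases are copper-dependent amine oxidases that are secreted and oxidise lysine and hydroxylysine side chains in collagen and elastin, which then crosslink. In tumours, including melanoma, they are known for stiffening the matrix, and LOXL2 is also known for crosslinking collagen IV of basement membranes.

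The libraries held 21882863 to 26694140 counts of genes each. Counts are given after normalization by edgeR's TMM factors, unless called raw. RIPK4 itself had 319, 339 and 383 normalized counts in A375neg replicates 1 to 3 and 45.9, 53.2 and 61.9 in A375RIPK4.KO replicates 1 to 3, a log2 fold change of −2.69 (standard error 0.17, edgeR adjusted p = 1.01e-05). A375RIPK4.KO replicate 2 stood apart from its group: its chi-square per gene was 24.6 and 20.5 against the other two A375RIPK4.KO libraries, whose own pair gave 6.88, while A375neg pairs gave 6.39 to 9.03. Each tested enzyme gene is therefore also given without it. Of 11 melanoma line markers, 7 were listed, with a summed normalized count of 26520 to 29180 in A375neg and 21370 to 22130 in A375RIPK4.KO. The pigment genes MLANA, TYR and DCT were not among them. PRAME had no row of its own, and a row for a copy of it was left out of the sum. That row held 35, 343 and 320 raw counts in A375neg and 48, 50 and 149 in A375RIPK4.KO. At an adjusted p under 0.05, 5 of the 7 listed markers were lower in A375RIPK4.KO, where 8.24% of all tested genes were. The summed counts were 274 to 319 and 249 to 283 for 6 of 9 fibroblast markers (COL1A2, COL3A1 and THY1 not listed), 1933 to 2007 and 1417 to 1750 for 4 of 6 keratinocyte markers (KRT1 and TP63 not listed), and 300.3 to 406 and 439 to 482 for 4 endothelial markers, in A375neg and A375RIPK4.KO respectively. Most of the endothelial sum was KDR, which was higher (log2 fold change 0.595, edgeR adjusted p = 0.0216), while PECAM1, at 21 to 24 raw counts in A375neg and 4 to 5 in A375RIPK4.KO, was lower (log2 fold change −2.117, edgeR adjusted p = 0.00556), and CDH5 and VWF had at most 14. Of the leukocyte markers, PTPRC and ITGAM had at most 5 raw counts in any library, the lysosomal gene CD68 had a log2 fold change of 0.14 (edgeR adjusted p = 0.259), and LYZ, with 38, 36 and 37 raw counts in A375neg and 13, 0 and 3 in A375RIPK4.KO, was lower (edgeR adjusted p = 0.0382). The part of these lists in the results below was not tested.

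Of the 8 enzyme genes with enough counts for the test, 5 differed between the groups at an adjusted p under 0.05, where 16.6% of all 14443 tested genes did. LOXL2 was higher in A375RIPK4.KO, against 8.4% of all genes, and 4 were lower (LOXL3, LOXL4, P4HA1 and P4HA2, against 8.24%). With a fold change of at least 1.5 as well, 3 remained, against 9.04% of all genes. These were LOXL2, which was higher (4.39% of all genes), and LOXL4 and P4HA2, which were lower (4.65%). The groups did not overlap for the same 5 genes, as for 36.5% of all tested genes. The median log2 fold change of the 8 genes was −0.31 and that of all tested genes −0.005. Without A375RIPK4.KO replicate 2, 6 of the genes passed the threshold, PLOD1 being added, and 3 passed both limits, while the share of all tested genes that passed the threshold was 19.8%.

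**Figure D1:**
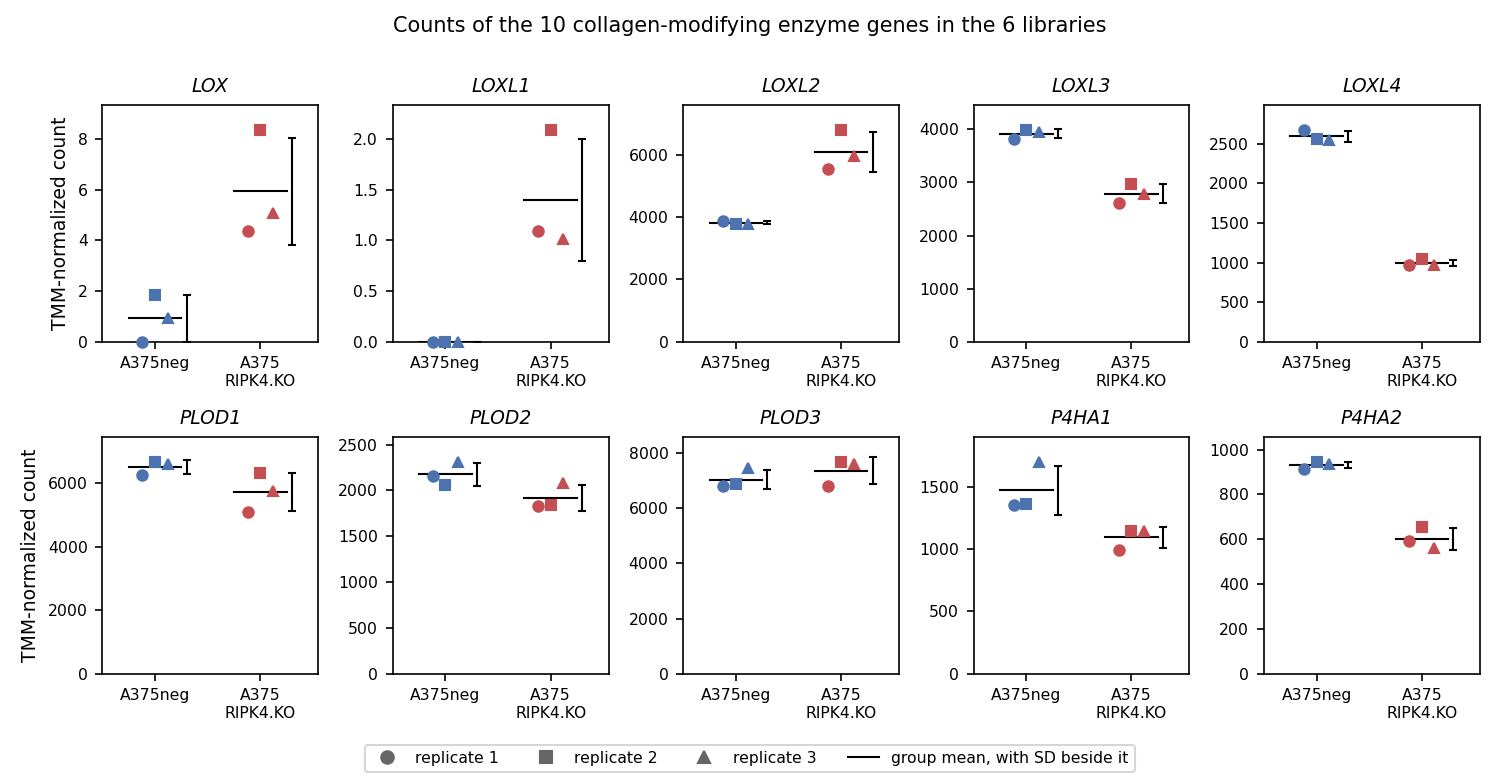
TMM-normalized counts of the 10 enzyme genes in 3 A375neg (blue) and 3 A375RIPK4.KO (red) libraries, 1 panel per gene with its own linear axis from 0; symbols mark the replicate, the line the group mean and the bar its SD. The groups are separate for LOXL2, which lies higher in A375RIPK4.KO, and for LOXL3, LOXL4, P4HA1 and P4HA2, which lie lower, while the PLOD genes overlap and LOX and LOXL1 stay at or below 8.35.

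Among the lysyl oxidases, LOXL2 rose while LOXL3 and LOXL4 fell in A375RIPK4.KO, and LOX and LOXL1 were close to absent from both sublines. LOXL2, on the minus strand of chromosome 8, had 3871, 3784 and 3785 normalized counts in A375neg and 5537, 6793 and 5954 in A375RIPK4.KO. Every knockout library was above every control library, and A375RIPK4.KO replicate 2 was the highest. The difference was 1.6-fold (log2 fold change 0.68, standard error 0.08, edgeR adjusted p = 0.000425), and 0.595 on the log2 scale without that library. LOXL2 also belongs to a set of migration-related genes that the study picked on these same libraries, so that selection is not independent evidence of its direction.

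LOXL4 had the largest change of the 8 tested enzyme genes. It encodes a secreted oxidase of the LOXL2 and LOXL3 type, with scavenger receptor domains before the catalytic part, and lies on the minus strand of chromosome 10 from 98247690 to 98268194 (GRCh38). Its normalized counts were 2671, 2559 and 2550 in A375neg and 964, 1041 and 974 in A375RIPK4.KO. All knockout libraries lay well below the controls, with a mean at 38.3% of the control level and little spread in either group. The log2 fold change was −1.385 (standard error 0.06, edgeR adjusted p = 1.55e-06), and −1.42 without A375RIPK4.KO replicate 2.

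LOXL3 fell by less. The gene lies on the minus strand of chromosome 2 from 74532258 to 74555702 (GRCh38). Its normalized counts were 3821, 3988 and 3945 in A375neg against 2618, 2980 and 2777 in A375RIPK4.KO, so the groups were separate and the knockout mean was 71.3% of the control. The log2 fold change was −0.49 (standard error 0.06, edgeR adjusted p = 0.000907), under the 1.5-fold limit, and −0.535 without A375RIPK4.KO replicate 2. LOXL3 shares 216 exonic bases with DOK1 and 625 with HTRA2, both on the opposite strand, out of 4363 exonic bases. The libraries were strand-specific, but the strand setting of the counting is not given in the sources used here, so reads in the shared bases may have been assigned elsewhere. The counts of both neighbours differed less between the groups, with log2 fold changes of 0.05 for DOK1 (edgeR adjusted p = 0.77) and −0.005 for HTRA2 (edgeR adjusted p = 0.975).

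LOX, the founding member of the family, is on chromosome 5 from 122063195 to 122078259. It had raw counts of 0, 2 and 1 in A375neg and 4, 8 and 5 in A375RIPK4.KO. LOXL1, known for the upkeep of elastic fibres, is on chromosome 15 from 73926462 to 73952136, and had 0 raw counts in each A375neg library and 1, 2 and 1 in A375RIPK4.KO. Both were too low for the test. A library without a count can still hold a transcript at up to 3 counts, and both groups of LOXL1 are at or under that limit, so no fold is given for it. For LOX, 3 counts in all controls against 17 in all knockout libraries gave a ratio of 6.22 after allowing for library size, with a 95% exact interval of 1.8 to 33.2 that covers counting error only. Without a filter on low counts, its edgeR adjusted p was 0.172. LOX lies within the span of SRFBP1, a gene of the opposite strand with 836 to 921 raw counts per library. LOX shares 138 of its 5547 exonic bases with SRFBP1, so the source of the few LOX counts is uncertain.

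Counts do not compare one gene with another, so levels were also expressed per transcript length, as TPM, in which the values of all genes with a known length add up to the same total in each library. In A375neg, LOXL3 at 117 ± 2.25 TPM and LOXL2 at 112 ± 1.75 (SD, n = 3) lay side by side, with LOXL4 at 73.9 ± 2.08. In A375RIPK4.KO, LOXL2 stood at 177 ± 5.28 TPM, LOXL3 at 82.1 ± 1.78 and LOXL4 at 28.0 ± 0.98. As a share of the family's TPM, LOXL2 thus went from 37.4%, 36.7% and 36.9% in the 3 control libraries to 60.6%, 62.7% and 61.3% in the knockout libraries. The share of LOXL4 was 25.1%, 24.1% and 24.1% against 10.3%, 9.33% and 9.74%, and that of LOXL3 37.5%, 39.2% and 39.0% against 29.1%, 27.9% and 29%. The family's sum was 302 ± 1.57 TPM in A375neg and 287 ± 4.62 in A375RIPK4.KO. The ratio of LOXL2 to LOXL4 was 1.49, 1.52 and 1.53 in the controls and 5.91, 6.72 and 6.29 in the knockout. These shares and ratios combine the 3 genes' own changes and are given without a test. They depend on the length taken for each gene: with the union of all exons, the mean LOXL2 share was 29.4% and 53.8%, and the family's sum was 418 ± 2.86 TPM in A375neg and 361 ± 7.19 in A375RIPK4.KO.

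**Figure D2:**
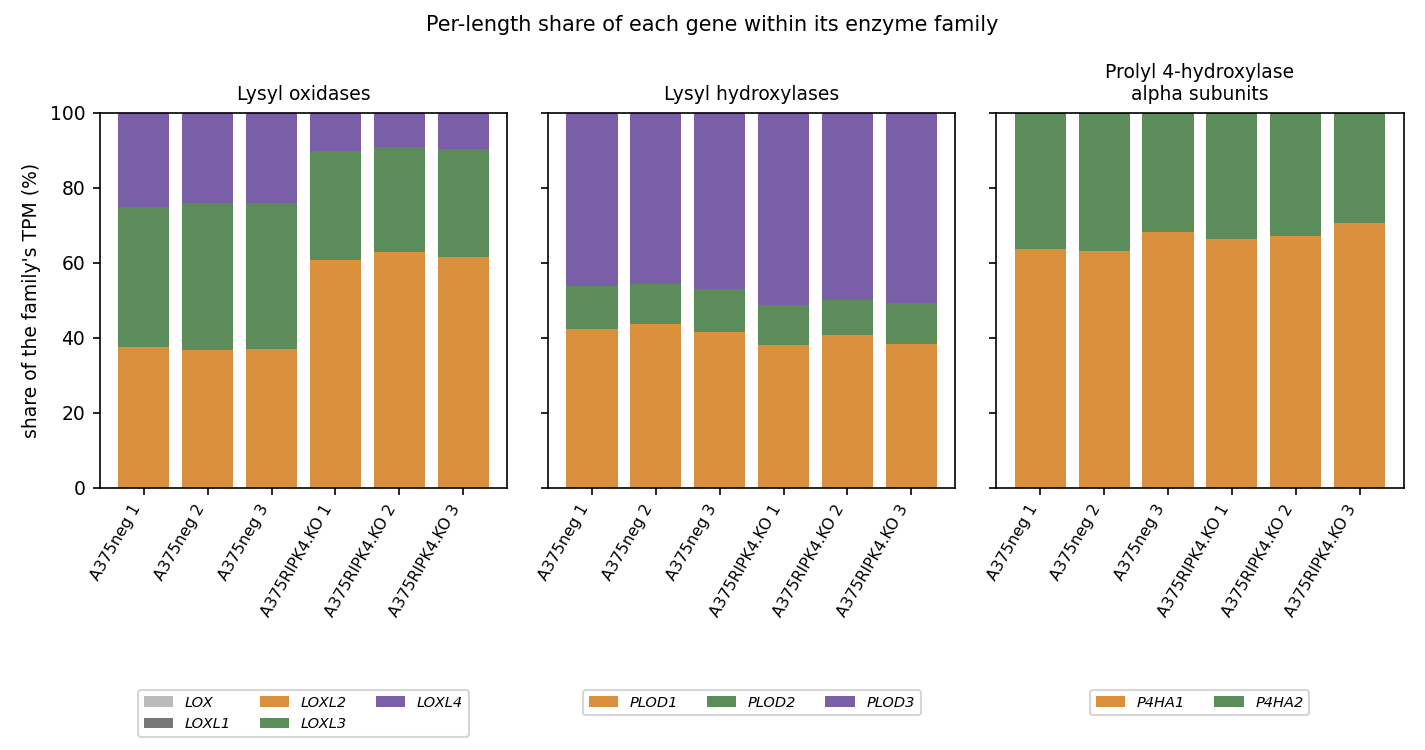
Share of each gene in the summed TPM (counts per transcript length) of its enzyme family, in percent, as stacked bars for the 6 libraries (A375neg 1 to 3, A375RIPK4.KO 1 to 3). LOXL2 takes 36.7% to 37.4% of the lysyl oxidases in the controls and 60.6% to 62.7% in the knockout, while the lysyl hydroxylase and prolyl 4-hydroxylase shares differ by a few percentage points; LOX and LOXL1 are too low to be seen.

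The 3 lysyl hydroxylases did not pass the threshold. PLOD1, on chromosome 1 from 11934717 to 11975537, had 6234, 6658 and 6605 normalized counts in A375neg and 5087, 6296 and 5752 in A375RIPK4.KO. A single knockout library reached into the control range. The log2 fold change was −0.19 (95% confidence interval −0.37 to −0.002, edgeR adjusted p = 0.162), and without that library, A375RIPK4.KO replicate 2, it was −0.26 (edgeR adjusted p = 0.0146), so the call of PLOD1 rests on it.

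PLOD2, on chromosome 3 from 146069440 to 146161184, had 2155, 2058 and 2310 normalized counts in A375neg and 1826, 1840 and 2081 in A375RIPK4.KO. The highest knockout library exceeded the lowest control. Its log2 fold change was −0.18 (95% confidence interval −0.35 to −0.01, edgeR adjusted p = 0.138), and −0.15 without A375RIPK4.KO replicate 2. PLOD3, on chromosome 7 from 101205984 to 101217581, had 6792, 6893 and 7448 in A375neg and 6816, 7680 and 7614 in A375RIPK4.KO. The groups overlapped, with a log2 fold change of 0.065 (95% confidence interval −0.09 to 0.22, edgeR adjusted p = 0.581), and 0.04 without A375RIPK4.KO replicate 2. The intervals are not adjusted for multiple testing, and those of PLOD1 and PLOD2 overlap that of LOXL3 (−0.636 to −0.342). Differences between genes were not tested.

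PLOD3 shares 429 of its 5671 exonic bases with ZNHIT1 on the opposite strand, whose log2 fold change was 0.11 (edgeR adjusted p = 0.436). With the transcript length, PLOD3 and PLOD1 were the most abundant of the 10 enzyme genes in both sublines. PLOD3 measured 251 ± 12.8 TPM in A375neg and 260.2 ± 14.3 in A375RIPK4.KO (SD, n = 3). PLOD1 measured 230.2 ± 7.63 and 199.8 ± 9.31 TPM, and PLOD2, the telopeptide enzyme, 60.7 ± 3.68 and 53.1 ± 6.22. The ratio of PLOD2 to the sum of the other two was 0.13, 0.119 and 0.129 in the controls and 0.12, 0.103 and 0.122 in the knockout.

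Both prolyl 4-hydroxylase alpha subunit genes fell in A375RIPK4.KO. P4HA2, on the minus strand of chromosome 5 from 132190147 to 132227853, had 915, 945 and 935 normalized counts in A375neg and 592, 656 and 560 in A375RIPK4.KO. The groups were far apart relative to their spread, and the knockout mean was 64.7% of the control. The log2 fold change was −0.63 (standard error 0.08, edgeR adjusted p = 0.000691). Without A375RIPK4.KO replicate 2 it was −0.69, and without A375RIPK4.KO replicate 3 it was −0.58, just under 1.5-fold, with an edgeR adjusted p of 0.00502.

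P4HA1, on the minus strand of chromosome 10 from 73007217 to 73096866, had 1349, 1364 and 1697 normalized counts in A375neg and 994, 1143 and 1144 in A375RIPK4.KO. All knockout libraries were below all controls, and A375neg replicate 3 was above the other controls. The log2 fold change was −0.43 (standard error 0.10, edgeR adjusted p = 0.0214), and −0.455 without A375RIPK4.KO replicate 2. Without A375neg replicate 3 it was −0.31 (edgeR adjusted p = 0.0684) and without A375RIPK4.KO replicate 1 it was −0.36 (edgeR adjusted p = 0.0627), so this call depends on those 2 libraries.

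The beta subunit P4HB had 15600, 15740 and 15920 normalized counts in A375neg and 14100, 17190 and 15630 in A375RIPK4.KO, overlapping groups with a log2 fold change of −0.01 (standard error 0.08, edgeR adjusted p = 0.946). P4HA3, the least abundant alpha subunit, had 27.6 to 35.0 normalized counts in A375neg and 14.2 to 17.5 in A375RIPK4.KO, a log2 fold change of −0.95 that missed the threshold (standard error 0.29, edgeR adjusted p = 0.057). Per length, P4HA1 measured 53.8 ± 7.25 TPM in A375neg and 39.6 ± 2.59 in A375RIPK4.KO, P4HA2 29 ± 0.39 and 18.5 ± 0.83, and P4HB 630.2 ± 6.47 and 618 ± 22.5 (SD, n = 3). The TPM of P4HA1 and P4HA2 together, divided by that of P4HB, was 0.125, 0.126 and 0.143 in the controls and 0.0971, 0.0905 and 0.0948 in the knockout. P4HB also serves other substrates as a protein disulfide isomerase, so this ratio is not that of the assembled enzyme.

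**Figure D3:**
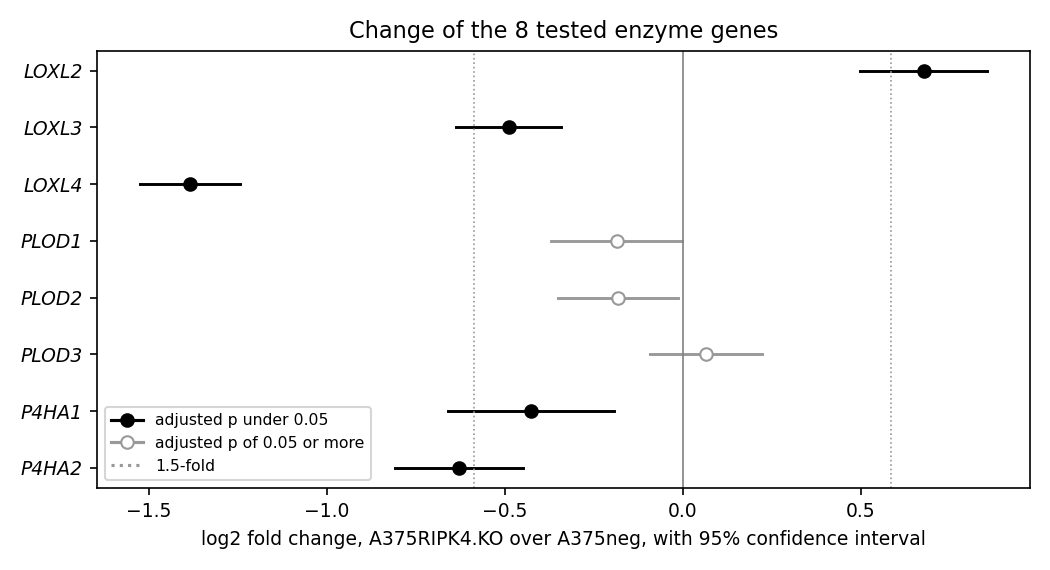
log2 fold change of A375RIPK4.KO over A375neg for the 8 tested enzyme genes (points) with the 95% confidence interval, unadjusted (lines); filled points passed an adjusted p under 0.05 and dotted lines mark 1.5-fold. LOXL2 is at 0.68, LOXL4 at −1.385, LOXL3, P4HA1 and P4HA2 lie between −0.63 and −0.43, and the PLOD genes between −0.19 and 0.065.

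The per-length order of the 10 genes in A375neg was PLOD3, PLOD1, LOXL3, LOXL2, LOXL4, PLOD2, P4HA1, P4HA2, LOX and LOXL1. The TPM ranges of PLOD2 (57.2 to 64.5) and P4HA1 (49.5 to 62.2) overlapped, LOXL3 (114 to 118) and LOXL2 (111 to 114) met, and the other neighbours were separate down to P4HA2. In A375RIPK4.KO, LOXL2 came before LOXL3, and LOXL4 came after P4HA1, at 27.0 to 28.9 TPM against 38.0 to 42.6. With the union exon length in place of the transcript length, LOXL3 remained above LOXL2 in A375neg. There LOXL4 at 130.4 TPM came before LOXL2 at 123, and P4HA1 at 87.3 before PLOD2 at 52.2. In A375RIPK4.KO with that length, LOXL2 at 194.3 TPM (186.5 to 202) overlapped PLOD1 at 195.4 (183.8 to 201.6).

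P4HA1, P4HA2, PLOD1, PLOD2 and LOX are known targets of hypoxia-inducible factors, which bind a core of ACGTG or GCGTG. Promoter windows from RefSeq (GRCh38), from 250 bases before to 50 bases after a gene's start, were searched for it on both strands. The letters CACGTG hold the first form on both strands. A match was present in 5 of 9 enzyme genes searched (LOX, LOXL3, PLOD1, PLOD2 and P4HA1), and in 48.4% of 35116 promoters in all, so such matches are common. The start used by that table lies inside the gene for LOX, LOXL3 and P4HA2, 1085, 6176 and 762 bases from its outer end, so their windows do not describe the outermost promoter. LOXL2 was not searched. The bases before the start are shown for P4HA1 and LOXL4, which fell, and for PLOD2, which held the most matches and did not pass the test. Each runs 5′ to 3′ on the gene's own minus strand, with the matches in capitals (CACGT being the reverse complement of ACGTG).
P4HA1, chr10:73096867-73097116: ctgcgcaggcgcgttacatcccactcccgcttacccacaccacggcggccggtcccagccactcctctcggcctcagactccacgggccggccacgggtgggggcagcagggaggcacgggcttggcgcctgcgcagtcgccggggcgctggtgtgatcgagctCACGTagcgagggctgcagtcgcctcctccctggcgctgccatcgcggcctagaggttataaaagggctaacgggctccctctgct
LOXL4, chr10:98268195-98268444: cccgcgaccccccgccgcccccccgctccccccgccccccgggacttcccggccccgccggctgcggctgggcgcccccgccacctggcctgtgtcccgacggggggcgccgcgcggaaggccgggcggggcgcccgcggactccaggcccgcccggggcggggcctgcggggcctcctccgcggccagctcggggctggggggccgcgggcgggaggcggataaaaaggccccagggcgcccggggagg
PLOD2, chr3:146161185-146161434: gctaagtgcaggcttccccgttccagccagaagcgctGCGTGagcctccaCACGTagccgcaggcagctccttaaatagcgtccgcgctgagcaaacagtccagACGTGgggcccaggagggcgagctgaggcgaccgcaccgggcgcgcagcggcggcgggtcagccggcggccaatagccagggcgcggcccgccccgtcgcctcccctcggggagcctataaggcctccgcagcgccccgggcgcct

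The window of P4HA1 held 1 match, which began 86 bases before the start, and that of PLOD2 held 3, at 213, 200 and 146 bases. LOXL4, with the largest fall among the enzyme genes, held none, and 86.4% of its 250 bases were G or C. Of other motifs, the E-box CAGGTG bound by Snail factors was found for LOX, LOXL3 and LOXL4 and in 20.6% of all promoters, and the TEAD core GGAATG for P4HA2 and in 14% of all. TGANTCA, bound by AP-1, and CACGTG, bound by MITF, were found for none of the 9, and in 7.71% and 7.26% of all promoters. A match describes letters only, and binding was not measured.

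Around the 10 enzymes, 104 genes of collagen biosynthesis, crosslinking and hypoxia were listed in 9 groups. Of these 97 were in the table and 79 could be tested. At an adjusted p under 0.05, 12 were higher and 16 lower in A375RIPK4.KO, or 35.4%, where 16.6% of all tested genes passed, and 10 of them also passed the 1.5-fold limit. Their median log2 fold change was −0.095. Of the 28, 17 held their call with any 1 library left out and 11 did not, and without A375neg replicate 2 the count was 17, with 10.3% of all genes called. Without A375RIPK4.KO replicate 2 it was 34, with 19.8% of all genes called.

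Of 11 other genes of prolyl and lysyl modification, 1 rose and 2 fell, with a median log2 fold change of −0.08. These calls were 27.3% of the list, against 16.6% of all tested genes. COLGALT2, a galactosyltransferase that acts on hydroxylysine, had 23 to 36.0 normalized counts in A375neg and 59.5 to 73.2 in A375RIPK4.KO (log2 fold change 1.15, standard error 0.25, edgeR adjusted p = 0.0137), and lost its call without A375neg replicate 2 (edgeR adjusted p = 0.0578). P3H1 and CRTAP, partners in prolyl 3-hydroxylation, fell by 0.24 and 0.20 on the log2 scale (edgeR adjusted p = 0.0331 and 0.0463), and both calls were lost with any of 5 of the 6 libraries left out. Of 13 collagen chaperones and export genes, 1 rose (TMEM38B) and 1 fell, or 15.4%, no more than the 16.6% of all tested genes. The gene that fell was SERPINH1, the collagen chaperone HSP47, at −0.41 (edgeR adjusted p = 0.00167). The 2 most abundant genes of that list, the general chaperones CALR and PDIA3, were at −0.13 and −0.02 (edgeR adjusted p = 0.327 and 0.84).

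Among 5 tested genes that process secreted procollagen, 2 rose and none fell, or 40% called where 16.6% of all tested genes were. PCOLCE2, an enhancer of C-propeptide cleavage, and ADAMTS3, an N-propeptidase, rose by 0.495 and 0.49 on the log2 scale (edgeR adjusted p = 0.0343 and 0.0293). The call of PCOLCE2 was lost with any library but A375neg replicate 3 left out, and that of ADAMTS3 without A375neg replicate 2 or 3 or A375RIPK4.KO replicate 1 or 3 (highest edgeR adjusted p 0.106 and 0.104). With the replicate number as a block, PCOLCE2 did not pass either. The C-proteinase BMP1, which also releases the propeptide of LOX, was at −0.28 (edgeR adjusted p = 0.0949) and PCOLCE at 0.165 (edgeR adjusted p = 0.2).

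Among 6 tested genes of other matrix crosslinking and copper supply, PXDN rose and ATOX1 fell. These calls were 33.3% of the 6, against 16.6% of all tested genes. PXDN, peroxidasin, forms the sulfilimine crosslinks of collagen IV. It had 2052, 2160 and 2400 normalized counts in A375neg and 5480, 5145 and 5899 in A375RIPK4.KO, and the groups were far apart (log2 fold change 1.32, standard error 0.08, edgeR adjusted p = 8.98e-06). ATOX1, the copper chaperone that hands copper to the secretory pathway, from which lysyl oxidases receive it, had 1045 to 1166 in A375neg and 630 to 835 in A375RIPK4.KO (log2 fold change −0.59, standard error 0.10, edgeR adjusted p = 0.00454). The copper pump ATP7A was at −0.125 (edgeR adjusted p = 0.648).

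Of the 6 tested matrix partners of lysyl oxidases, 1 passed in the main comparison, or 16.7%, about the 16.6% of all tested genes. EFEMP2, fibulin-4, which is known to bring LOX to elastic fibres, had 43.0 to 59.9 normalized counts in A375neg and 125 to 127 in A375RIPK4.KO (log2 fold change 1.34, standard error 0.20, edgeR adjusted p = 0.0017). The most abundant of the 6, THBS1 and FN1, missed the threshold at −0.51 and 0.58 (edgeR adjusted p = 0.0699 and 0.0521). Without A375RIPK4.KO replicate 2 both passed, making 3 of 6, against 19.8% of all tested genes. The list also gave 3 calls with the replicate block (17.6% of all genes) and 4 with the gene length correction (22.2%). The remaining alternatives gave 1 or 2. Among the substrates, 14 of 17 collagen chains were listed and 9 tested, with 4 higher and 1 lower. These calls were 55.6% of the 9, against 16.6% of all tested genes. COL4A1 and COL4A2, the main chains of basement membrane collagen IV, rose by 0.535 and 0.465 on the log2 scale (edgeR adjusted p = 0.00132 and 0.00464), and COL5A2 and COL5A3 by 0.32 and 0.45 (edgeR adjusted p = 0.0167 and 0.0236). The calls of COL5A2 and COL5A3 were each lost without any 1 of the A375neg libraries or A375RIPK4.KO replicate 3 (highest edgeR adjusted p 0.0775 and 0.0815), and those of COL4A1 and COL4A2 held without any 1 library. COL4A5 fell, from 111 to 120.0 normalized counts in A375neg to 48.0 to 67.8 in A375RIPK4.KO (log2 fold change −0.92, standard error 0.20, edgeR adjusted p = 0.0132). COL1A1 had 20 to 27 raw counts in A375neg and 1 to 14 in A375RIPK4.KO and did not pass (edgeR adjusted p = 0.177), while COL1A2 and COL3A1 were not listed.

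Of 20 tested genes in the hypoxia list, 9 fell and 2 rose, where 8.24% of all tested genes were lower and 8.4% higher. The median log2 fold change was −0.19. Besides hypoxia-inducible genes outside collagen modification, the list holds HIF1A, EPAS1 and ARNT, which encode subunits of the hypoxia-inducible factors themselves. The list had 11 calls in all and 7 without A375neg replicate 2 or without A375RIPK4.KO replicate 1, and the calls of HIF1A, BNIP3L, SLC2A1 and PGK1 were each lost without at least 3 of the 6 libraries in turn. DDIT4, an inhibitor of mTORC1 signalling, fell from 3467, 3355 and 3275 normalized counts to 1200, 1231 and 1122 (log2 fold change −1.51, standard error 0.06, edgeR adjusted p = 1.05e-06). CA9, a carbonic anhydrase, fell by 0.79 and NDRG1 by 0.755 on the log2 scale (edgeR adjusted p = 0.00366 and 0.000234). ADM, adrenomedullin, rose by 1.21 (edgeR adjusted p = 0.000132), and so did the subunit gene HIF1A by 0.29 (edgeR adjusted p = 0.0275). ADM was thus the only gene called higher outside the subunit genes. VEGFA at −0.40, PDK1 at −0.465 and PFKFB4 at −0.585 were also called (edgeR adjusted p = 0.00174, 0.00402 and 0.000824). By sign alone, 15 of the 20 genes were lower and 5 higher. The subunit genes EPAS1 at −0.08 and ARNT at −0.095 are counted among the lower (edgeR adjusted p = 0.865 and 0.497), and HIF1A among the higher. Members that did not pass included BNIP3 at −0.19, KDM3A at −0.07 and ENO1 at 0.02. A shared cause was not tested. LDHA was not tested: its own row held 5 to 13 raw counts, and a second row for a copy of it held 222 to 2987 with no separation of the groups.

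**Figure D4:**
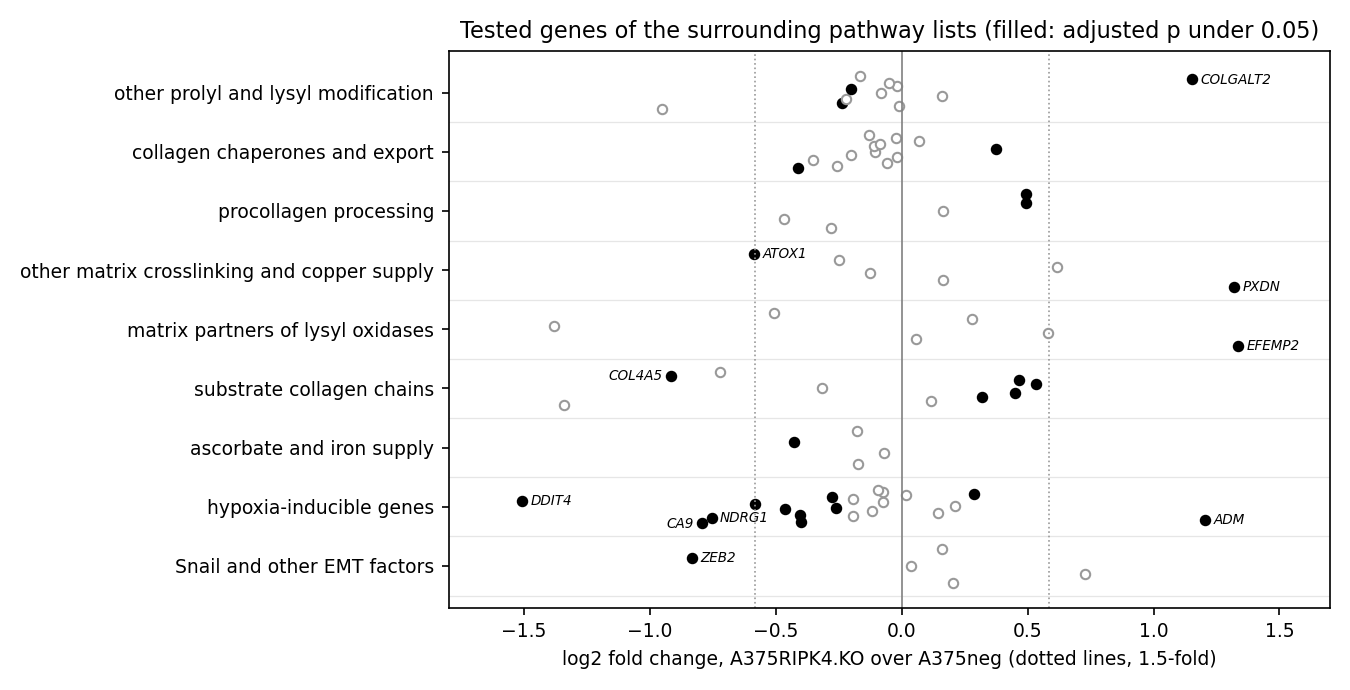
log2 fold change of A375RIPK4.KO over A375neg for the 79 tested genes of the 9 surrounding lists, 1 row per list; filled points passed an adjusted p under 0.05, dotted lines mark 1.5-fold and the genes past both limits are named. PXDN, EFEMP2, ADM and COLGALT2 lie above 1 on the log2 scale, and DDIT4 lies at −1.51.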

How the data were processed

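RNA sequencing counts of A375neg and A375RIPK4.KO cells (3 libraries each, grouped by sample title) were compared. The submitters' processing notes name cutadapt, FastQC, HISAT2, HTSeq and DESeq2 with the build GRCh38.p13, and no versions. The libraries were poly(A)-enriched and strand-specific, and were prepared and sequenced by a provider. The deposited raw counts, whole-number read counts per gene made by the authors' provider without normalization, were used. Size-factor-scaled counts and the columns of the authors' own test (fold changes, statistics and p-values) in the same table were not used. The lowest total of a listed gene was 4 counts, so rarer genes are not listed.

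Counts were fitted in R 4.3.3 with edgeR 4.0.16 (TMM factors, filterByExpr, quasi-likelihood test, group as the only term) over the whole table, and p-values were adjusted by Benjamini-Hochberg over all 14443 genes tested. A call means an adjusted p under 0.05, with a fold change of at least 1.5 where stated. For normalized counts, the raw count was divided by the library's effective size (total times TMM factor), scaled to a mean of 1 over the libraries. The depth per library gives a limit of 0.112 to 0.137 CPM for a gene with 0 counts. TPM were computed over 16282 genes from the length of the GENCODE v29 principal transcript, and genes without a length held 6.41% to 7.24% of counts. Positions and promoters come from RefSeq (GRCh38). The deposited exon overlapped the RefSeq gene for 98.34% of genes compared, and 19066 names matched.

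All 10 enzyme genes are named. From the pathway lists, every gene past both limits is named, or the 2 of highest mean count where a list has none. Other pathway genes were named after their values were seen. The enzyme genes and lists were chosen with earlier results of these data known. Alternatives were DESeq2 1.42.0, limma-voom (limma 3.58.1), other size factors, no filter or a mean of at least 50 counts, a gene length correction, the replicate number as a block and each library left out. matplotlib 3.10.9 under Python 3.11.15 drew the figures.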

Additional observations from a re-analysis of the deposited data

How the results depend on the processing

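The calls of LOXL2, LOXL3, LOXL4 and P4HA2 held under all 14 alternatives, with log2 fold changes of 0.595 to 0.743, −0.535 to −0.443, −1.416 to −1.362 and −0.69 to −0.576. The number of enzyme genes called was 4 to 6 with each library left out in turn and 5 in the main comparison and every other alternative, and the number past both limits was 2 to 3 and 3. P4HA1 was lost without A375neg replicate 3 or A375RIPK4.KO replicate 1, and PLOD1 was gained without A375RIPK4.KO replicate 2. RIPK4 stayed between −2.80 and −2.59. Among the pathway genes, 28 were called, and 26 to 31 under the alternatives that keep all libraries. Leaving out a library lowered the count to 17 to 21, except A375RIPK4.KO replicate 2, without which it was 34. The cause was not tested. Over all genes, 2403 were called, and 1526 without A375neg replicate 2. Same-numbered libraries of the 2 groups correlated at only 0.08, 0.04 and −0.01 in their deviations from the group means, so the numbers were not taken as pairs. With the replicate block, 5 enzyme genes were called, 3 of them past both limits, and 29 pathway genes, and RIPK4 was at −2.69. The median log2 fold change of all genes stayed between −0.008 and 0.01 under every scaling. Depth limits LOX and LOXL1, which were not tested: DESeq2 gave LOX an adjusted p of 0.229 and LOXL1 an unadjusted p of 0.304.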

Other observations

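Of 5 tested Snail and other EMT transcription factors, 1 differed between the sublines, or 20%, near the 16.6% of all tested genes. ZEB2 had 503, 508 and 563 normalized counts in A375neg and 296, 263 and 322 in A375RIPK4.KO (log2 fold change −0.835, standard error 0.11, edgeR adjusted p = 0.000769), and the groups were separate. SNAI1, a factor that LOXL2 is known to act on, was at 0.205 (edgeR adjusted p = 0.415), ZEB1 at 0.04 (edgeR adjusted p = 0.83) and TWIST1 at 0.16 (edgeR adjusted p = 0.579). SNAI2 had at most 12 raw counts in any library.

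Genes of ascorbate uptake and iron handling gave 1 call among 4 tested, or 25%, where 16.6% of all tested genes were called. FTH1, the ferritin heavy chain, had 44310 to 46140 normalized counts in A375neg and 31700 to 36630 in A375RIPK4.KO (log2 fold change −0.43, standard error 0.07, edgeR adjusted p = 0.0034). FTL, the ferritin light chain, was at −0.18 (edgeR adjusted p = 0.329), and the ascorbate transporter SLC23A2 at −0.17 (edgeR adjusted p = 0.276). SLC40A1, which encodes the iron exporter ferroportin, had 0 raw counts in each A375neg library and 6, 3 and 4 in A375RIPK4.KO, and was too low for the test.

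KRT14, a keratin of basal keratinocytes, was among the marker genes that differed, with 461, 607 and 504 raw counts in A375neg and 121, 158 and 147 in A375RIPK4.KO (log2 fold change −1.75, edgeR adjusted p = 3.46e-05), while KRT5, its usual partner, had 2 to 11. SRFBP1 and ENTPD4, which overlap LOX and LOXL2, were at 0.08 and −0.13 (edgeR adjusted p = 0.513 and 0.524).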
